A study of Zea mays with 6 samples.

Results

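The glutathione S-transferase genes of maize leaves were examined in plants grown under 2 soil water regimes. The members are the rows of the deposited expression table whose gene name or description contains glutathione S-transferase or glutathione transferase. This rule found 85 of 45953 annotated features. Leaf RNA (Zea mays) was sequenced from 3 LW libraries, of droughted plants given a continuous supply through negative pressure irrigation (the soil pulls water out of a container kept under suction), and from 3 CW libraries, of plants in moist soil under drip irrigation. Soil water and irrigation method differed together, so their effects cannot be told apart. The labels give no genotype, plant age, leaf position or sampling time, and nothing says that replicates came from separate plants, so a p-value here reflects the spread over 3 libraries a group, part of which may be technical.

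Glutathione S-transferases (GSTs) are soluble enzymes that join the tripeptide glutathione to reactive or foreign molecules, which can then be moved into the vacuole. The tau and phi classes are large in plants and are known in maize for herbicide detoxification. The lambda class and the dehydroascorbate reductases (DHAR) carry a cysteine in the active site and act in thiol transfer and ascorbate recycling, while zeta enzymes isomerise maleylacetoacetate in tyrosine breakdown and theta enzymes have peroxidase activity. The microsomal enzymes are membrane proteins of a separate fold.

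The table's own words placed 16 members in tau, 5 in phi, 2 in lambda, 1 in zeta, 5 in theta and 2 in DHAR. They also named 1 microsomal enzyme and 1 TCHQD enzyme, so called for its likeness to a bacterial dehalogenase. Its GO terms placed 2 more members in zeta, and its enzyme numbers marked 2 as glutathionyl-hydroquinone reductases (GHR). From textbook knowledge 3 more were taken as phi (glutathione-S-transferase1, S-transferase2 and S-transferase4) and 4 as tau (transferase5, transferase6, transferase7 and bronze2). The other 41 members stayed unclassed. No genome or protein table was used here, so no sequence was compared, and how reads shared between near-identical copies were divided could not be checked.

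Estimated counts summed to 62327457 to 84084375 per LW library and 42927751 to 64067543 per CW library. Leaf marker genes were present in both groups. Chlorophyll a-b binding proteins summed to 6126 to 9013 FPKM in LW and 31657 to 39793 FPKM in CW, with 15 of 18 tested genes lower in LW. The 2 Rubisco small subunits summed to 1014 to 1967 FPKM in LW and 3761 to 20149 FPKM in CW, with 2 of 2 called lower. Other leaf markers overlapped between the groups. PEP carboxylases summed to 268.5 to 1312 FPKM in LW and 275.9 to 533.6 FPKM in CW (0 of 9 called), carbonic anhydrases to 594.8 to 728.9 FPKM in LW and 411.5 to 954.0 FPKM in CW (0 of 16 called), and NADP-malic enzymes to 58.6 to 94.8 FPKM in LW and 33.1 to 121.6 FPKM in CW (0 of 2 called). Pyruvate orthophosphate dikinases summed to 527.9 to 1030.5 FPKM in LW and 850.1 to 1283.7 FPKM in CW, with 1 of 4 lower. Root markers summed to 25.1 to 33.1 FPKM in LW and 14.9 to 18.4 FPKM in CW, with 6 of 12 at 0 in every library and 1 of 5 tested called higher in LW. Pollen and anther markers summed to 21.8 to 48.5 FPKM in LW and 22.4 to 35.4 FPKM in CW (0 of 6 tested called). Senescence markers summed to 190.3 to 218.6 FPKM in LW and 327.3 to 512.3 FPKM in CW, with 1 of 6 called lower. The part of leaf composition or leaf age in the results was not tested, and a different share of cells and a different amount of RNA per cell cannot be told apart in bulk tissue.

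Summed over all 85 members, the family stood at 3407, 2669 and 3545 FPKM (fragments per kilobase and per 1000000 mapped fragments, a level that can be compared between genes) in LW replicates 1 to 3, and at 1231, 961 and 1347 FPKM in CW replicates 1 to 3. All LW libraries therefore lay above all CW libraries, and the LW mean was 2.72 times the CW mean (exact two-sided permutation test, p = 0.1, the smallest that 3 against 3 values can give). The members took 0.476%, 0.367% and 0.491% of all counts in LW and 0.173%, 0.149% and 0.178% in CW. Libraries scaled by TMM factors gave a ratio of 2.10 over the tested members, a scaling chosen after the data were seen. The number of members at 100 FPKM or more was 11, 10 and 13 in LW and 3 in each CW library. The 3 most abundant members held 27.9% to 30.4% of the summed level in LW and 41.1% to 49.9% in CW, so the level was spread over more genes in LW.

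**Figure D1:**
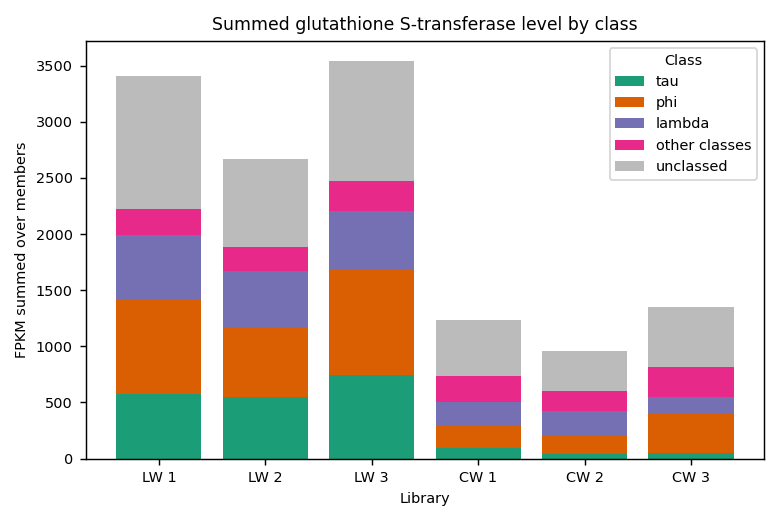
FPKM summed over the members of each class (stacked bars, 1 bar per library, LW libraries left). The 3 LW libraries stand at 2669 to 3545 FPKM and the 3 CW libraries at 961 to 1347 FPKM, and the tau part is 546 to 747 FPKM in LW and 43.3 to 98.0 FPKM in CW.

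By class, summed tau genes stood at 575, 546 and 747 FPKM in LW and 98.0, 43.3 and 45.4 FPKM in CW, 10.0 times higher in LW. Phi genes summed to 834, 623 and 946 FPKM in LW and 194, 170.2 and 362 FPKM in CW, 3.30 times higher, and the 2 lambda genes to 585, 499 and 513 FPKM in LW and 207, 211 and 139.7 FPKM in CW, 2.86 times higher. In these classes no LW library overlapped a CW library, and each had an exact permutation p = 0.1. The same held for the unclassed members, at 1184, 786 and 1074 FPKM in LW and 492, 355 and 532 FPKM in CW, 2.21 times higher. It also held for the 2 GHR genes, at a ratio of 1.28 on FPKM. On TMM-scaled counts the GHR gene Zm00001d051928 had all LW values below all CW values (log2 fold change -0.59, SE 0.28). The other, Zm00001d011958, had overlapping groups on these counts (log2 fold change 0.14, SE 0.22). Neither passed. Zeta genes stood at 85.1, 87.2 and 91.2 FPKM in LW and 132.7, 89.6 and 132.4 FPKM in CW, a ratio of 0.743 with an exact permutation p = 0.2. The tau and phi sums hold the members classed from textbook knowledge and leave out any unclassed member of these classes, so their ratios depend on that choice. The difference between classes was not tested.

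Of the 85 members 25 had no count in any library, 9 had counts but too few to be tested, and 51 were tested in 1 model over 24704 genes (edgeR's quasi-likelihood test). At a Benjamini-Hochberg adjusted p under 0.05, 12 members rose in LW, against 2.84% of all tested genes called higher, and 1 fell, against 2.40% of all tested genes called lower. The other 38 tested members did not pass. At an unadjusted p under 0.05, 18 members were higher and 4 lower, against 13.3% and 11.4% of all tested genes. These 4 were 2 zeta and 2 DHAR genes. The median log2 fold change was 0.89 over the tested members and 0.06 over all tested genes, and 38 of 51 members had a positive value, against 52.6% of all tested genes. With libraries scaled by their totals alone 15 members rose and none fell (5.77% and 1.40% of all tested genes; 2 members were lower at an unadjusted p under 0.05), while DESeq2 called 17 higher and 2 lower (8.39% and 6.74%). The share of all tested genes called higher and lower was 2.83% and 2.35% with RLE factors, 2.26% and 1.84% without a low-count filter, and 3.60% and 3.34% with a filter of 1 count per 1000000 in 3 libraries. In limma it was 10.7% and 2.61% on log2(FPKM + 1), 9.17% and 2.43% on log2(FPKM + 0.1), and 5.81% and 1.21% on log2(FPKM + 1) without a filter. With the replicate number as a block edgeR called 0.00810% and 0.00405%. The members' counts under these settings are given with the processing. The filter on low counts admitted genes that are expressed in 1 group alone, so these counts describe the tested members and not the whole family.

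The calls depended on single libraries. In edgeR's test the number of members higher was 1 without LW replicate 1, 1 without LW replicate 2, 0 without LW replicate 3, 4 without CW replicate 1, 0 without CW replicate 2 and 16 without CW replicate 3. Of all tested genes these fits called 0.0202%, 0.0162%, 0.00405%, 0.696%, 0.00% and 6.79% higher, in the same order. At an unadjusted p under 0.05, 16 members were higher without LW replicate 3 and 16 without CW replicate 2, against 18 with all libraries. The shares of all tested genes at that threshold were 9.41%, 11.8% and 13.3%, in the same order. The member that fell passed again without CW replicate 3, where 3 members were lower (5.21% of all tested genes), and missed the threshold in the other 5 of these fits. Each of the 13 called members kept its direction in every fit it entered.

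**Figure D2:**
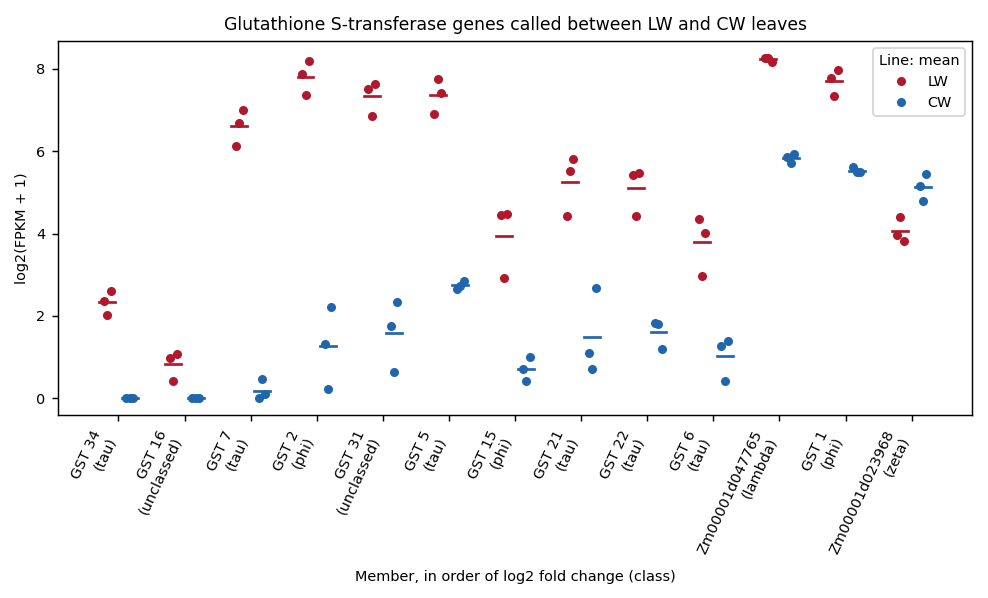
Level in each library, as log2(FPKM + 1), of the 13 members that passed the test, ordered by log2 fold change, LW left of CW (points: 3 libraries each; lines: means). In all 12 members that rose the LW points lie above the CW points, and in Zm00001d023968 they lie below.

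Of 20 tau genes 12 were tested, 6 rose, none fell and all 12 had a positive log2 fold change. Among the 6, transferase5, transferase6 and transferase7 were taken as tau from textbook knowledge, so these counts depend on that choice. Glutathione transferase5 (Zm00001d034356, chromosome 1, 290470998 to 290471672) had 118.2, 213.6 and 170.0 FPKM in LW and 5.32, 5.62 and 6.16 FPKM in CW. The CW libraries lay close together and far below every LW library, a 22.7-fold rise (log2 fold change 4.50, SE 0.28, adjusted p = 0.00751), the smallest adjusted p among the members. It was also the member called without LW replicate 1 and without LW replicate 2. Glutathione transferase7 (Zm00001d042104, chromosome 3, 150759060 to 150760119) had 68.5, 102.1 and 128.1 FPKM in LW and 0.00, 0.39 and 0.07 FPKM in CW. It was thus near 0 in every CW library (log2 fold change 8.84, SE 1.06, adjusted p = 0.0207).

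Glutathione transferase22 (Zm00001d024963, chromosome 10, 96969512 to 96970459) had 41.7, 20.6 and 43.1 FPKM in LW and 2.55, 2.49 and 1.31 FPKM in CW, a 13.1-fold rise (log2 fold change 3.71, SE 0.48, adjusted p = 0.0207). Glutathione transferase6 (Zm00001d018809, chromosome 7, 5834880 to 5838491) had 19.6, 6.89 and 15.2 FPKM in LW and 0.34 to 1.61 FPKM in CW, a 9.98-fold rise (log2 fold change 3.32, SE 0.69, adjusted p = 0.0428). For both genes LW replicate 2 was the lowest LW library, still above every CW library. Glutathione transferase21 (Zm00001d042096, chromosome 3, 150586826 to 150587533) had 20.6, 45.0 and 55.6 FPKM in LW and 1.16, 0.63 and 5.36 FPKM in CW, a 13.3-fold rise at the edge of the threshold (log2 fold change 3.73, SE 0.83, adjusted p = 0.0498). Glutathione transferase34 (Zm00001d029696, chromosome 1, 82924832 to 82925958) had 4.17, 3.06 and 5.14 FPKM in LW and no count in CW. It was at least 65.8-fold higher in LW, against a floor of 3 counts in each CW library (adjusted p = 0.0221), a floor that covers counting error only.

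The tau gene with the highest level in both groups did not pass. Zm00001d043795, annotated as GSTU6, had 288.5, 147.6 and 316.9 FPKM in LW and 80.6, 26.4 and 25.7 FPKM in CW. The groups did not overlap, but the libraries of each spread widely (log2 fold change 2.18, SE 0.57, adjusted p = 0.0699). It passed in DESeq2 and with libraries scaled by totals. Glutathione transferase20, of the same gene cluster, had 9.09, 4.45 and 8.04 FPKM in LW and 4.87, 7.41 and 4.06 FPKM in CW, with overlapping groups (log2 fold change 0.06, SE 0.44). The anthocyanin gene bronze2, whose product is needed to move anthocyanins into the vacuole of maize cells, was listed at 0 in all 6 libraries. It overlaps another annotated gene on the opposite strand, and how reads were divided there could not be checked.

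Of 8 phi genes 5 were tested, 3 rose and none fell. Among the 3, S-transferase1 and S-transferase2 were taken as phi from textbook knowledge. Glutathione S-transferase2 (Zm00001d024839, chromosome 10, 90384434 to 90385822) codes for a subunit known for herbicide conjugation under safener treatment. It had 234.3, 163.9 and 289.3 FPKM in LW and 1.51, 0.17 and 3.69 FPKM in CW (log2 fold change 6.68, SE 1.05, adjusted p = 0.0275). On mean FPKM it ranked 327 of 24704 tested genes in LW and 15968 in CW. Glutathione transferase15 (Zm00001d010870, annotated as F13, chromosome 8, 131542385 to 131544754) had 20.8, 6.57 and 21.4 FPKM in LW and 0.63, 0.33 and 1.01 FPKM in CW, a 19.9-fold rise (log2 fold change 4.31, SE 0.67, adjusted p = 0.0274).

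Glutathione-S-transferase1 (Zm00001d012675, chromosome 8, 178411857 to 178414647), an enzyme known to conjugate herbicides, had 218.9, 160.5 and 250.9 FPKM in LW and 48.0, 43.8 and 43.8 FPKM in CW, a 3.67-fold rise (log2 fold change 1.88, SE 0.29, adjusted p = 0.0275). Glutathione S-transferase4 (Zm00001d042216, chromosome 3, 156422305 to 156423867, described as GST 3) was the member with the highest mean level in both groups. It had 359.4, 291.9 and 383.6 FPKM in LW and 143.8, 126.0 and 313.9 FPKM in CW. CW replicate 3 stood above 1 of the LW libraries, and the difference did not pass (log2 fold change 0.50, SE 0.39, adjusted p = 0.481). Glutathione S-transferase4 ranked 189 among tested genes in LW and 432 in CW.

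Both lambda genes are annotated as the chloroplast L2 enzyme. Zm00001d047765 (chromosome 9, 141344056 to 141346400) had 303.9, 307.1 and 286.7 FPKM in LW and 56.6, 51.6 and 59.98 FPKM in CW. Its values hardly spread within either group, and it rose 4.20-fold (log2 fold change 2.07, SE 0.23, adjusted p = 0.0207). The other, Zm00001d028692 (chromosome 1, 43328452 to 43334856), had 280.9, 191.4 and 226.6 FPKM in LW and 150.6, 159.1 and 79.7 FPKM in CW. Its groups did not overlap in FPKM but did on TMM-scaled values, and it did not pass (log2 fold change 0.50, 95% interval -0.38 to 1.38, adjusted p = 0.463). Zm00001d047765 was the more abundant of the pair in each LW library, and Zm00001d028692 in each CW library. The difference between these 2 genes was not tested.

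**Figure D3:**
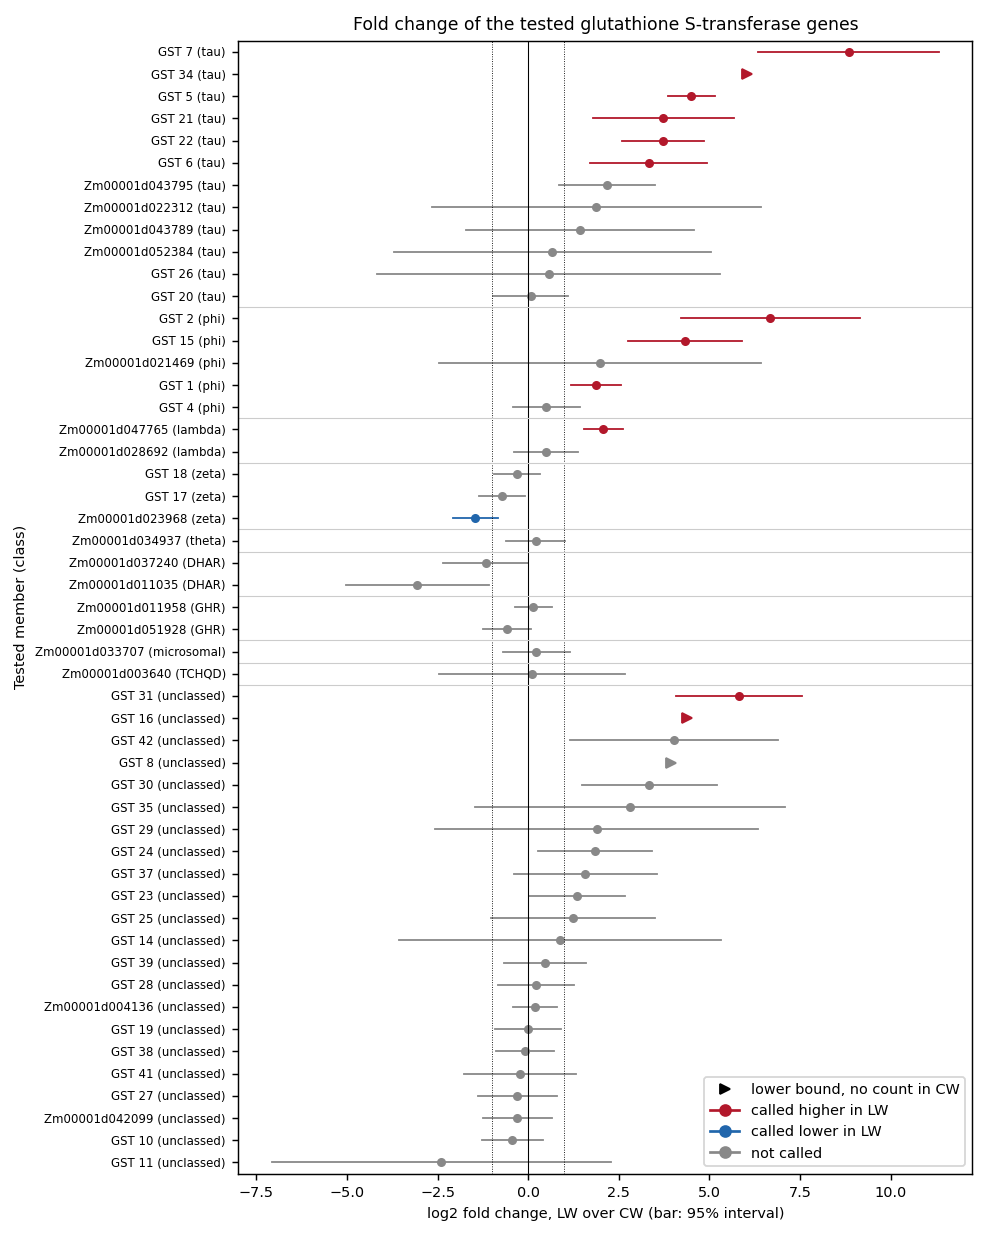
Log2 fold change, LW over CW, of the 51 tested members by class (points; bars: 95% intervals; triangles: lower bounds for the 3 genes without a count in CW; dotted lines: -1 and 1). All 12 tau and all 5 phi values lie right of 0, and the 3 zeta and 2 DHAR values lie left of it, of which the zeta gene GST 18 turns to 0.04 with scaling by totals.

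The 1 member that fell was a zeta gene, Zm00001d023968 (chromosome 10, 32563929 to 32567309), which the table annotates with maleylacetoacetate isomerase of tyrosine breakdown. It had 14.7, 20.0 and 13.1 FPKM in LW and 34.4, 26.7 and 42.3 FPKM in CW. The groups did not overlap, and the gene fell 2.76-fold (log2 fold change -1.46, SE 0.26, adjusted p = 0.0330). Scaled by library totals its value was -1.11, with an adjusted p = 0.0593 in edgeR. The other zeta genes were glutathione transferase17, with 44.8, 41.5 and 37.7 FPKM in LW and 63.9, 37.4 and 60.2 FPKM in CW (log2 fold change -0.72, SE 0.27, adjusted p = 0.154), and glutathione transferase18, with 25.6, 25.7 and 40.5 FPKM in LW and 34.4, 25.6 and 29.9 FPKM in CW (log2 fold change -0.32). With scaling by library totals the value of glutathione transferase18 was 0.04.

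Among the DHAR genes, Zm00001d011035 (annotated as DHAR2, chromosome 8, 137157191 to 137159528) had 0.17, 0.50 and 0.29 FPKM in LW and 2.78, 2.80 and 0.70 FPKM in CW. All LW libraries lay below all CW libraries, but it did not pass in edgeR (log2 fold change -3.06, SE 0.84, adjusted p = 0.0783), while DESeq2 called it lower. The chloroplast enzyme DHAR3 (Zm00001d037240) had 3.19, 4.31 and 3.23 FPKM in LW and 6.04, 10.2 and 2.42 FPKM in CW. CW replicate 3 was below every LW library for this gene, and without CW replicate 3 both DHAR genes passed as lower. The 1 tested theta gene, Zm00001d034937, overlaps another annotated gene and had a log2 fold change of 0.20 (SE 0.35), and the microsomal gene Zm00001d033707 one of 0.22 (SE 0.39).

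The 95% interval of the log2 fold change lay within -1 and 1 for 5 of the 51 tested members, against 14.9% of all tested genes. The most abundant of these flat members was glutathione transferase19 (Zm00001d036951, chromosome 6, 107194843 to 107195520). It had 278.2, 189.5 and 167.0 FPKM in LW and 212.1, 194.2 and 99.4 FPKM in CW, with a log2 fold change of -0.01 (95% interval -0.93 to 0.90). It was the second member by level in CW, so 1 of the most abundant genes of the family was flat by this measure. Zm00001d011958, a GHR gene, had 24.9, 31.3 and 34.7 FPKM in LW and 23.3, 20.2 and 20.9 FPKM in CW (95% interval -0.37 to 0.65). The others were glutathione transferase18 (-0.95 to 0.32), glutathione transferase38 (-0.88 to 0.70) and Zm00001d004136 (-0.42 to 0.81). With libraries scaled by totals the values of glutathione transferase19, transferase38 and transferase18 were positive, among 6 tested members whose sign changed.

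Among the 41 unclassed members 22 were tested, 2 rose and none fell. Glutathione transferase31 (Zm00001d027557, chromosome 1, 8129042 to 8130156) had 180.2, 114.2 and 197.7 FPKM in LW and 2.37, 0.57 and 4.08 FPKM in CW (log2 fold change 5.82, SE 0.74, adjusted p = 0.0207). On mean FPKM it ranked 514 in LW and 14703 in CW. Glutathione transferase16 (Zm00001d021470, chromosome 7, 153075349 to 153079559) was a rare transcript, at 0.97, 0.34 and 1.11 FPKM in LW and without a count in CW, at least 20.9-fold higher in LW against the same floor (adjusted p = 0.0456). Glutathione transferase25, among the most abundant in CW, had 327.3, 68.0 and 186.6 FPKM in LW and 91.7, 6.31 and 105.8 FPKM in CW. Replicate 2 was the lowest library of each group for this gene, the groups overlapped, and its interval was wide (log2 fold change 1.24, 95% interval -1.02 to 3.49). Glutathione transferase39 had 160.7, 97.5 and 152.6 FPKM in LW and 62.3, 38.5 and 140.8 FPKM in CW, also with overlap (log2 fold change 0.45, SE 0.48).

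The genes that rose mostly had a low level in CW. In 10 of the 12 the CW mean was under 10 FPKM, as it was in 33 of the 51 tested members. The median CW mean over all 12 was 1.95 FPKM, against a median of 69.98 FPKM in LW. Of the 18 tested members with a CW mean of 10 FPKM or more, 2 rose, glutathione-S-transferase1 and the lambda gene Zm00001d047765. A fold change of a low gene is larger for the same added amount, so these counts describe the family and were not tested. Of the 12 risen members 8 are assigned by the table to the KEGG pathway of glutathione metabolism, which holds 28 of the 51 tested members.

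On TMM-scaled counts, among the tested members that did not pass, 8 had all LW values above all CW values, 3 had all below, and 27 overlapped. Over all 51 tested members, called ones included, 20 were separated in the higher direction and 4 in the lower. Over all tested genes, called ones likewise included, 19.7% were separated in the higher direction and 14.9% in the lower. The 8 include glutathione transferase8, chosen after its values were seen, at 0.67, 0.61 and 1.46 FPKM in LW and without a count in CW (adjusted p = 0.0515). They also include glutathione transferase30, likewise, at 46.5, 88.3 and 129.0 FPKM in LW and 4.18, 1.67 and 14.6 FPKM in CW (log2 fold change 3.34, SE 0.79, adjusted p = 0.0572). CW replicate 2 was the lowest CW library in 24 of 51 tested members, against 31.6% of all tested genes, and LW replicate 2 the lowest LW library in 25 of 51, against 34.2%.

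The members lay on all 10 chromosomes, with 26 on chromosome 1 and 18 on chromosome 3. Positions are those of the deposited table, whose build is not given in the sources used here. Counting members as neighbours when at most 10 annotated features lay between them, 36 members fell into 9 clusters, 6 of which held 3 or more members. These 6 clusters held 30 members, of which 19 were tested and 3 rose. Outside them 32 members were tested and 9 rose.

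The longest cluster held 10 members within 486.9 kb of chromosome 1 (82924832 to 83411720), 8 of them on the plus strand. It held 2 members without any count and 6 tested members. Glutathione transferase34 at 1 end rose, glutathione transferase30 at the other end is described above, and glutathione transferase39 between them was the most abundant. Glutathione transferase38, next to it, was flat at 7.01, 12.4 and 12.2 FPKM in LW and 9.61, 6.54 and 10.0 FPKM in CW. Glutathione transferase42, chosen after its values were seen, had 8.43, 4.07 and 6.65 FPKM in LW and 0.46, 0.00 and 0.49 FPKM in CW (log2 fold change 4.03, SE 1.22, adjusted p = 0.0962). The cluster as a whole stood at 249.0 FPKM in LW and 97.1 FPKM in CW, as sums of group means.

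A cluster of 7 members within 175.0 kb of chromosome 3 (150585101 to 150760119) held the risen tau genes glutathione transferase7 and transferase21. Its summed mean level was 161.2 FPKM in LW and 18.0 FPKM in CW. Between this pair lies Zm00001d042099, which had 4.01, 4.95 and 7.5 FPKM in LW and 5.75, 5.84 and 4.24 FPKM in CW, with overlapping groups (log2 fold change -0.31, SE 0.41, adjusted p = 0.692). Another cluster of chromosome 3, of 3 members annotated as GSTU6, summed to 258.8 FPKM in LW and 49.9 FPKM in CW, most of it from Zm00001d043795.

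A cluster of 4 members within 42.5 kb of chromosome 1 (7844326 to 7886863), all on the minus strand, had no called member. Glutathione transferase10 carried nearly all of its level, at 14.3, 35.1 and 35.0 FPKM in LW and 30.6, 33.7 and 23.2 FPKM in CW, with a log2 fold change of -0.43 (SE 0.36). Glutathione transferase11 at its other end stayed at or under 0.74 FPKM in every library. The cluster of 3 on chromosome 9 (158667068 to 158684127) held glutathione transferase25, the rare glutathione transferase35 at a log2 fold change of 2.81 (SE 1.82, adjusted p = 0.391), and a gene without a count. In the cluster of 3 near 87097798 on chromosome 1, 2 members had no count and glutathione transferase14 stayed at or under 0.08 FPKM.

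**Figure D4:**
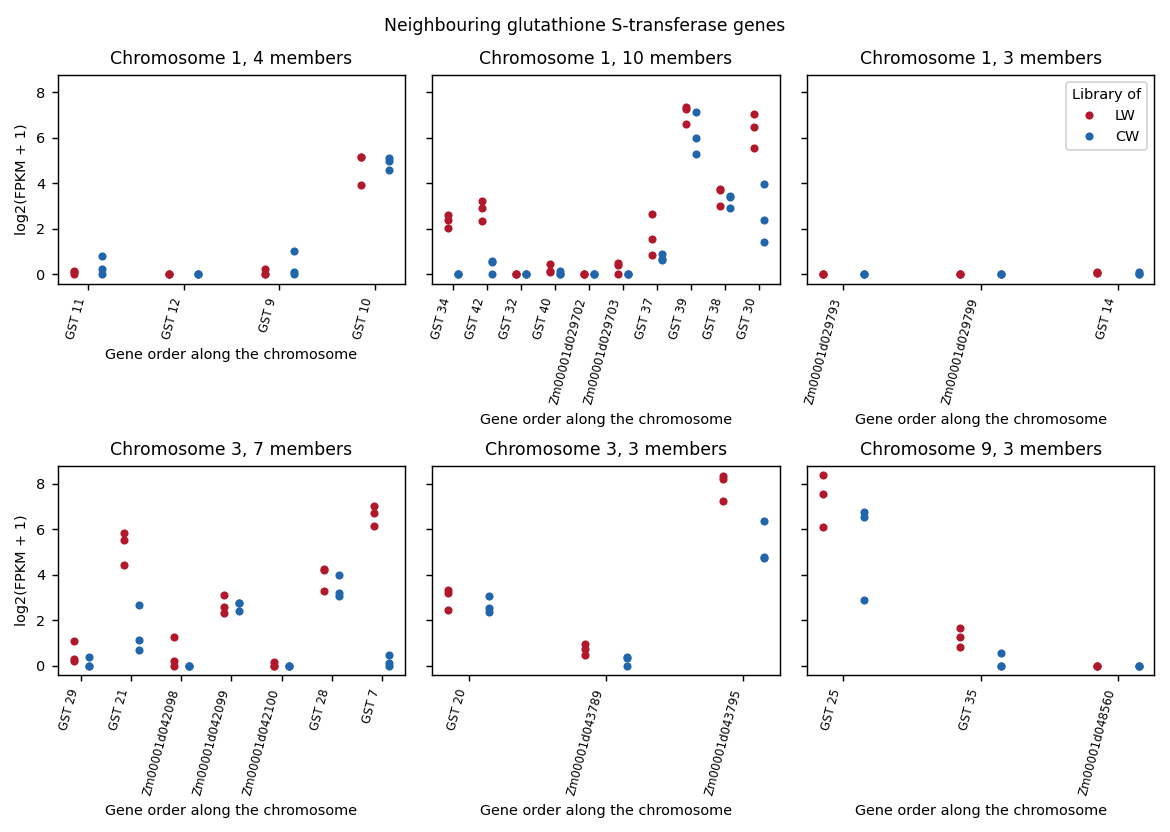
Level in each library, as log2(FPKM + 1), of the members of the 6 clusters with 3 or more members, in gene order along the chromosome, LW left of CW. Some clusters hold members without a count as well as abundant ones. The clusters of the risen members GST 7 and GST 34 also hold members whose groups overlap.

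Of the 25 members without a count, 14 carry only the description of a family protein, out of 17 members so described. The median annotated length was 1025 bp for members without a count and 1322 bp for the other 60. The 9 members with too few counts to be tested reached at most 1.37 FPKM in any library, and 5 of them had counts in LW alone.

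Other genes of glutathione metabolism, matched by words in a list of 69 genes, are counted beside the members. Of 55 tested, 3 rose and 3 fell, against 2.84% and 2.40% of all tested genes, and the other 49 missed the threshold. Their median log2 fold change was 0.13, against 0.06 over all tested genes. Gamma-glutamylcysteine synthetase1 (Zm00001d035445), whose enzyme catalyses the first step of glutathione synthesis, had 51.1, 28.7 and 54.9 FPKM in LW and 12.2, 7.30 and 11.9 FPKM in CW, a 3.42-fold rise (log2 fold change 1.77, SE 0.36, adjusted p = 0.0424). Glutamate-cysteine ligase (Zm00001d010950), of the same step, had 51.2, 41.0 and 41.3 FPKM in LW and 19.6, 22.0 and 17.9 FPKM in CW, without passing (log2 fold change 0.82, adjusted p = 0.0956, edgeR). The tested glutathione synthetases, Zm00001d007661 and Zm00001d041710, did not pass either, with log2 fold changes of -0.48 (SE 0.38) and -0.47 (SE 0.34). The cytosolic glutathione reductase (Zm00001d018454), which returns oxidised glutathione to the thiol form, had 44.1, 35.9 and 38.2 FPKM in LW and 14.8, 9.96 and 15.1 FPKM in CW, a 2.35-fold rise (adjusted p = 0.0484, edgeR). The chloroplast enzyme, glutathione reductase1 (Zm00001d027769), did not pass (log2 fold change -0.18, SE 0.33). The glutathione peroxidase most abundant in LW (Zm00001d002704) had 222.0, 286.9 and 213.5 FPKM in LW and 56.5, 37.3 and 45.2 FPKM in CW. It rose 4.07-fold (adjusted p = 0.0219, edgeR). In CW the most abundant was Zm00001d037079, with 71.4, 85.6 and 62.8 FPKM there and 70.8, 67.8 and 64.6 FPKM in LW. That gene did not pass (log2 fold change -0.46, SE 0.24).

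Some transporters of the ABC C family carry glutathione conjugates into the vacuole. None of 14 tested transporters of this family passed in edgeR. There 5 were higher and 0 lower at an unadjusted p under 0.05, and DESeq2 called 2 higher and 0 lower. Of all tested genes 13.3% were higher and 11.4% lower at that unadjusted p in edgeR, and DESeq2 called 8.39% and 6.74%. The transporters' log2 fold changes were positive in 12 of 14, against 52.6% of all tested genes, with a median of 0.80. In 6 of the 14 all LW values lay above all CW values, against 19.7% of all tested genes. Whether the transporters shifted as a set was not tested. The most abundant in LW, ABC transporter C family member 3 (Zm00001d008733), had 67.5, 41.8 and 38.5 FPKM in LW and 15.4, 18.8 and 24.9 FPKM in CW (log2 fold change 1.00, SE 0.35, adjusted p = 0.130). None of 9 tested genes of glutathione breakdown passed in edgeR, where 4 were lower at an unadjusted p under 0.05, against 11.4% of all tested genes. DESeq2 called 3 of them lower, against 6.74%. The most abundant of them, gamma-glutamylcyclotransferase 2-2 (Zm00001d016469), had 127.7, 86.4 and 176.4 FPKM in LW and 221.6, 240.6 and 251.4 FPKM in CW (log2 fold change -1.21, SE 0.35, adjusted p = 0.0842).

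The 3 pathway genes that fell were 2 lactoylglutathione lyases and an S-formylglutathione hydrolase, from the genes of other glutathione uses. The genes Zm00001d015975 and Zm00001d015976 are annotated as probable chloroplast lactoylglutathione lyases, enzymes that clear methylglyoxal. Zm00001d015975 had 10.9, 8 and 5.61 FPKM in LW and 25.0, 42.0 and 37.2 FPKM in CW, a 5.37-fold fall (adjusted p = 0.0257, edgeR). Zm00001d015976 had 16.1, 27.4 and 23.6 FPKM in LW and 46.9, 64.6 and 62.8 FPKM in CW, a 3.35-fold fall (adjusted p = 0.0256, edgeR). S-formylglutathione hydrolase (Zm00001d011891), an enzyme of formaldehyde oxidation, had 18.3, 23.4 and 23.1 FPKM in LW and 39.7, 37.7 and 42.6 FPKM in CW, a 2.37-fold fall (adjusted p = 0.0299, edgeR). A further lactoylglutathione lyase, Zm00001d039661, chosen after its values were seen, had 16.8, 9.59 and 51.7 FPKM in LW and 4.08, 1.34 and 1.11 FPKM in CW. Its LW values lay above all CW values, but it did not pass (log2 fold change 3.24, SE 0.84, adjusted p = 0.0690, edgeR). The most abundant gene of other uses in LW, Zm00001d031186, did not pass either, at 91.9, 40.1 and 60.3 FPKM in LW and 77.4, 54.8 and 64.5 FPKM in CW (log2 fold change -0.35).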

How the data were processed

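Leaf RNA of 6 libraries was sequenced as paired ends after poly(A) selection, per the labels' protocols. Their wording conflicts with this in places, as it also mentions adipose material and RNA without poly(A) tails. The RNA fraction that was sequenced therefore cannot be settled from the protocols. FastQC 0.10.1 is listed, with no role, in the submitters' processing notes, as are edgeR, StringTie 1.3.4 and HISAT2 2.0. Build, annotation and strandedness were not given in the sources used here. The authors deposited FPKM values and whole-number counts per gene. Because 28.6% to 31.4% of deposited counts from 1 to 40 are multiples of 4, they were treated as estimated counts, with no counting interval. Groups follow the titles; the source name of CW replicate 2 carries another number.

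Deposited counts were tested with edgeR 4.0.16 in R 4.3.3, using TMM factors, filterByExpr, glmQLFit and glmQLFTest over all 6 libraries, group as the only term and Benjamini-Hochberg adjustment over 24704 genes. The SE is the log2 fold change over the square root of F, so intervals are approximate. Fold changes use TMM-scaled counts and need not equal ratios of FPKM. Alternatives used DESeq2 1.42.0 and limma 3.58.1. The fitting step was tested on simulated data.

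Members, lists and the rule for named genes were chosen with earlier results of these data known. Values per library are given for called members, the 3 most abundant in CW per class, flat members, the extremes of clusters of 3 or more, and members lower in all LW libraries, with the called and the most abundant pathway genes by role. Class could not be taken from protein similarity as planned.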

Additional observations from a re-analysis of the deposited data

How the results depend on the processing

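Members called higher numbered 11 to 17 under the 5 other edgeR and DESeq2 settings of scaling and filtering and in limma, against 12, and the 12 called members were among them wherever they could be tested. Leaving out 1 library gave 0 to 16 higher (12 with all) and 0 to 3 lower (1 with all). Members called lower were 2 in DESeq2, 0 scaled by totals and 0 in limma without a filter. No called member changed direction. The values showed no pairing by replicate number. Deviations from group means correlated at -0.00688, -0.00550 and -0.162 for the same number, and no library correlated best with its own number. With so few libraries this cannot exclude a pairing. With the replicate block 0 members were higher and 0 lower in edgeR (19 and 2 at an unadjusted p under 0.05, against 10.9% and 8.54% of all tested genes), and 0 pathway genes were higher and 0 lower.

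Pathway genes called higher were 3, against 8 in DESeq2, 7 scaled by totals, and 10 in limma on log2(FPKM + 1) and on log2(FPKM + 0.1); leaving out 1 library gave 0 to 5. Pathway genes called lower were 3, against 6 in DESeq2, and 0 to 4 without 1 library. The shares of all tested genes under DESeq2, scaling by totals and limma are given with the members. The cause of these differences was not tested. The summed level ratio was 2.72, or 2.67 as a share of counts, 2.10 with TMM scaling, and 2.49 to 2.95 without 1 library. Scaling by totals moved the median of all genes from 0.06 to 0.42 and that of tested members from 0.89 to 1.27.

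The log2 fold changes of 5 named members that did not pass changed sign under some settings, none of them passing there. Scaled by totals, glutathione transferase19 was at 0.34, transferase38 at 0.28, transferase18 at 0.040 and Zm00001d042099 at 0.062. In limma on log2(FPKM + 1), with or without a filter, they were at 0.37, 0.23, 0.0079 and 0.022 in the same order, and on log2(FPKM + 0.1) at 0.37, 0.25, 0.0075 and 0.022. With the replicate block glutathione transferase19 was at 0.020. Leaving out 1 library gave -0.31 to 0.18 for glutathione transferase19, -0.17 to 0.39 for transferase20 and -0.24 to 0.12 for transferase38.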
